A study of Mus musculus with 9 samples.

Results

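The genes of the beta1 integrin subunit, Itgb1, and of 9 alpha subunits were followed across 3 preparations of mouse heart cells. They were chosen by name, as the probes annotated to exactly 1 of the listed integrin genes, and make up 10 of the 19933 genes with a single symbol on the array. Each of the 10 was represented by 1 probe. The preparations were adult cardiac fibroblasts, embryonic cardiac fibroblasts and embryonic heart muscle cells marked by the reporter Nkx-YFP (Nkx-YFP+ cardiomyocytes), with 3 biological replicates of each, measured on Affymetrix mouse Gene 1.0 ST arrays. The series was made to look for fibroblast factors that act on the division of heart muscle cells. The labels name no strain, sex, embryonic stage, adult age or culture of the fibroblasts, and they do not say how the reporter was built or whether animals were pooled.

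Integrins are cell surface receptors built from an alpha and a beta subunit, and they tie the extracellular matrix to the actin cytoskeleton. The alpha subunit largely sets which matrix protein is bound, while the beta subunit's tail recruits talin, kindlins and other adaptors inside the cell. The beta1 subunit pairs with many alpha subunits: with alpha1, alpha2, alpha10 and alpha11 it binds collagens, with alpha3, alpha6 and alpha7 laminins, with alpha5, alpha8 and alphaV proteins carrying the Arg-Gly-Asp motif such as fibronectin, and with alpha4 fibronectin and VCAM1. In the heart, beta1 integrins anchor cardiomyocytes to their basement membrane and fibroblasts to interstitial collagen and fibronectin.

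Values are RMA values on the log2 scale, in which a step of 1 is a 2-fold step in probe brightness. They rank groups for the same gene, not genes against each other. Calls of higher or lower rest on an adjusted p below 0.05 (limma, Benjamini-Hochberg over all 19933 genes, two-sided). Embryonic fibroblasts enter 2 of the 3 comparisons, and so does each other group, so the comparisons share arrays. Arrays of a group correlated with each other at means of 0.970 to 0.994 over all probes, and adult fibroblast replicate 3 had the lowest of these values. Eif2s3y, a Y-linked gene, was lower on every adult array than on any embryonic one (4.67 to 5.10 in adult fibroblasts, 8.43 to 8.53 in embryonic fibroblasts and 8.51 to 9.33 in cardiomyocytes), while Xist was high in all groups (11.54 to 11.92 in adult fibroblasts, 10.84 to 11.04 in embryonic fibroblasts and 10.49 to 11.16 in cardiomyocytes). The sexes in each preparation are not given, and age and sex make-up cannot be told apart. The mean of 10 fibroblast markers followed the labels. It was 11.10 to 11.31 in adult fibroblasts, 9.85 to 10.08 in embryonic fibroblasts and 8.38 to 8.72 in cardiomyocytes. All 10 were higher in both fibroblast groups than in cardiomyocytes. In adult against embryonic fibroblasts 7 were higher, 1 was lower, Col3a1, and 2 were not called, Col1a1 and Postn. The mean of 10 cardiomyocyte markers was 7.94 to 8.41 in adult fibroblasts, 11.06 to 11.76 in embryonic fibroblasts and 12.60 to 12.72 in cardiomyocytes. The embryonic fibroblast arrays thus stood high in cardiomyocyte markers, against their label: the summed linear values were 2952 to 5315 in adult fibroblasts, 37867 to 51985 in embryonic fibroblasts and 75097 to 80085 in cardiomyocytes. Set against cardiomyocytes, embryonic fibroblasts had 7 of these 10 markers lower, and 3 were not called, Tnnt2, Myl2 and Actc1. The part of cardiomyocytes in the results on embryonic fibroblasts was not tested. In such bulk samples fewer cells of a type and less RNA per cell cannot be told apart.

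**Figure D1:**
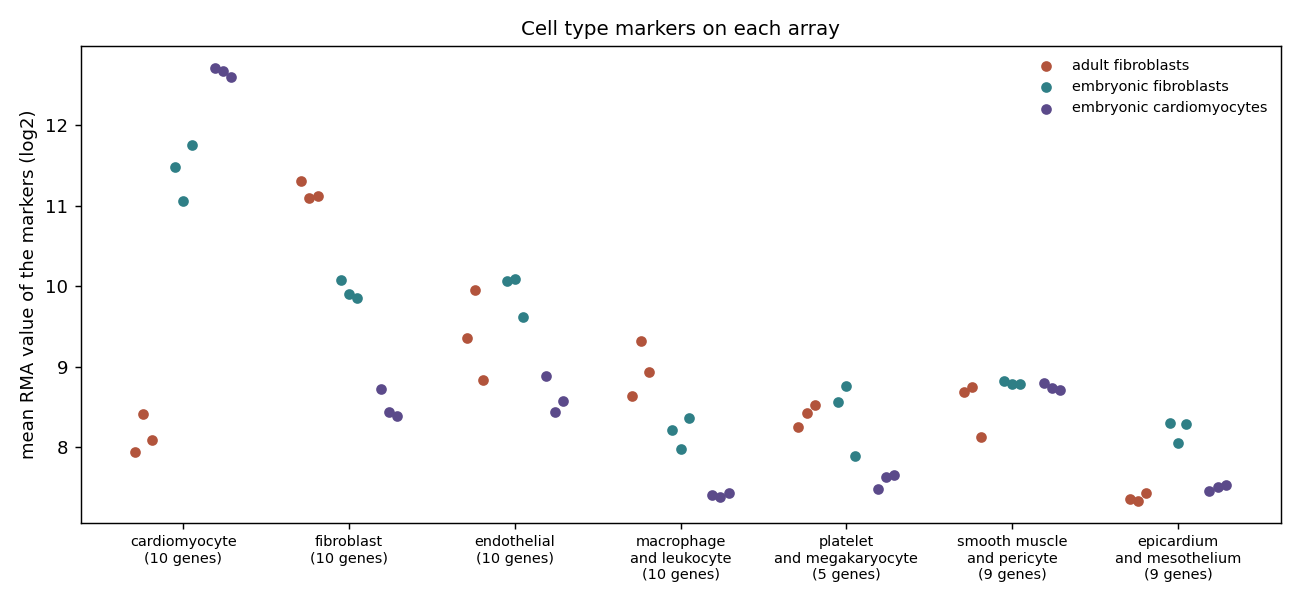
Mean RMA value (log2) of the markers of 7 cell types on each array; each point is an array. Cardiomyocyte markers were highest in cardiomyocytes and lowest in adult fibroblasts, and the endothelial mean ran from 8.83 to 9.95 among the adult fibroblast arrays, 9.62 to 10.09 in embryonic fibroblasts and 8.43 to 8.88 in cardiomyocytes.

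In embryonic fibroblasts 5 of the 10 genes were higher than in embryonic cardiomyocytes, and 0 were lower. These were Itgav, Itga8, Itga2, Itga4 and Itga5. Of all genes tested, 10.3% were called higher and 11.1% lower in this comparison. The members were chosen with earlier results of these data known, so the counts here and in the other comparisons are a description only. At an unadjusted p under 0.05, 6 members were higher and 0 lower. The median log2 difference of the members was 0.90, against -0.00033 over all genes. For 8 members every array of one group lay apart from the other group, as for 39.1% of all genes.

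In adult fibroblasts 1 member, Itga11, was higher than in embryonic fibroblasts, where 8.34% of all genes were called higher, and 4 were lower, where 11.2% of all genes were called lower. The lower ones were Itga6, Itga8, Itga2 and Itga4. The median log2 difference was -0.17, against 0.044 over all genes, and groups did not overlap for 5 members (33% of all genes). This count of 4 was not stable. It was 1 to 2 when any of the 9 arrays other than adult fibroblast replicate 3 was left out. With only the fibroblast groups fitted it was 1. Itga2 (limma adjusted p = 0.0365) and Itga4 (0.0442) were near the threshold. Their calls were lost whichever cardiomyocyte array was left out, although these arrays are not part of the comparison.

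Adult fibroblasts compared with embryonic cardiomyocytes showed 4 members higher, namely Itgav, Itga11, Itga5 and Itga2, and 0 lower (also 0 lower at an unadjusted p under 0.05). The background was 17.4% of genes higher and 18.2% lower. The median log2 difference of the members was 0.25, against 0.058 over all genes. Groups did not overlap for 4 members, against 45.9% of all genes. Without adult fibroblast replicate 2, 1 member, Itga6, was lower.

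**Figure D2:**
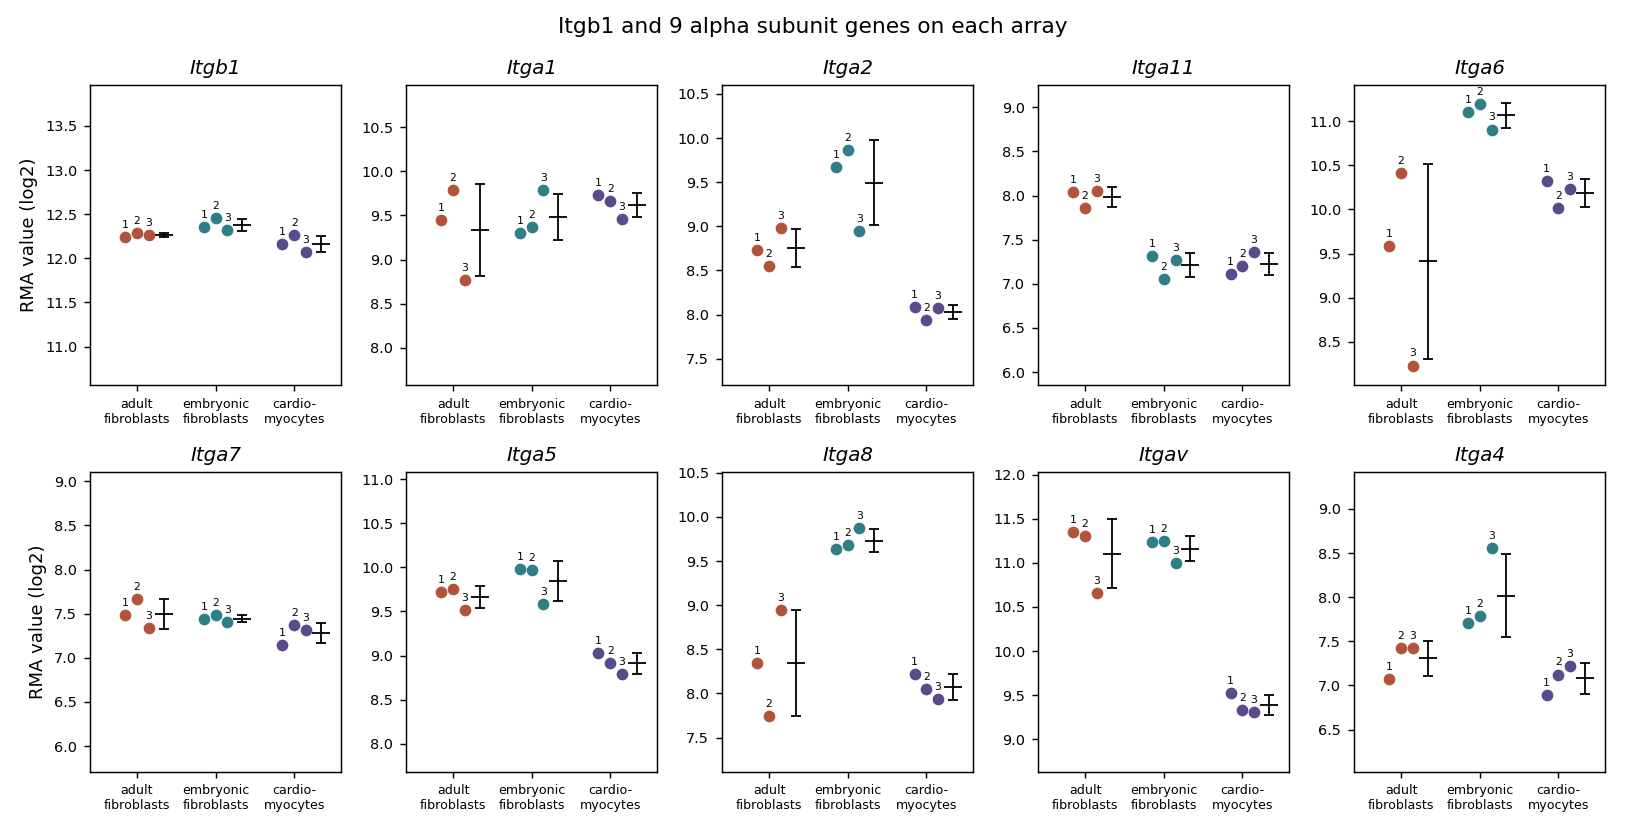
RMA value (log2) of the 10 genes on each array. Points are arrays with their replicate numbers, bars give the mean ± SD of 3 arrays beside them, and every panel spans 3.4 log2 units. Itgb1 lay between 12.08 and 12.45 on all 9 arrays, while Itgav was lower in each cardiomyocyte array than in each fibroblast array.

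Itgb1, the common beta subunit, differed little between the preparations. It stood at 12.24, 12.28 and 12.27 in adult fibroblasts, at 12.36, 12.45 and 12.32 in embryonic fibroblasts, and at 12.16, 12.26 and 12.08 in cardiomyocytes. The embryonic fibroblast arrays lay above all others, and those of adult fibroblasts and cardiomyocytes overlapped. Its log2 difference between embryonic fibroblasts and cardiomyocytes was 0.21 ± 0.075 (SE, n = 3 per group, limma adjusted p = 0.0801), with a 95% confidence interval from 0.041 to 0.38 that is not corrected for the number of genes. Only with array weights, of 17 alternatives, did this difference pass (adjusted p = 0.0440, over a range from 0.0440 to 0.253). Adult fibroblasts did not pass against embryonic fibroblasts (-0.11, interval from -0.28 to 0.056) or against cardiomyocytes (0.097, interval from -0.073 to 0.27). After quantile normalization the difference from cardiomyocytes was 0.35 and passed (adjusted p = 0.0147, over a range from 0.0147 to 0.657).

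The collagen receptor genes went separate ways. Itga2, whose product binds collagen on platelets and epithelia, stood at 8.73, 8.56 and 8.98 in adult fibroblasts, at 9.67, 9.86 and 8.95 in embryonic fibroblasts, and at 8.08, 7.94 and 8.07 in cardiomyocytes. Cardiomyocytes were below every fibroblast array, and embryonic fibroblast replicate 3 lay within the adult range. Itga2 was 2.75-fold higher in embryonic fibroblasts than in cardiomyocytes (log2 difference 1.46 ± 0.21, adjusted p = 0.00126) and 1.65-fold higher in adult fibroblasts than in cardiomyocytes (0.72 ± 0.21, adjusted p = 0.0239). It was 1.67-fold lower in adult than in embryonic fibroblasts (-0.74 ± 0.21, adjusted p = 0.0365). This last call was lost in 10 of 17 alternatives, among them the replicate block (adjusted p = 0.0600), and without 7 of the single arrays, over a range from 0.00145 to 0.128. The call of adult fibroblasts against cardiomyocytes was lost without adult fibroblast replicate 1 or 3 or any cardiomyocyte array (adjusted p up to 0.0803, over a range from 0.00165).

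Of 5 measured markers of platelets and megakaryocytes, 2 were higher in embryonic fibroblasts than in cardiomyocytes, Pf4 and Itga2b, and 3 were not called. Their summed linear RMA values were 1942 to 2670 in adult fibroblasts, 1246 to 2766 in embryonic fibroblasts and 888 to 1021 in cardiomyocytes. The marker mean on the 3 embryonic fibroblast arrays was 8.56, 8.76 and 7.89, lowest on the array where Itga2 was lowest. It was 8.24, 8.42 and 8.52 in adult fibroblasts and 7.47, 7.62 and 7.65 in cardiomyocytes, in neither group in the order of Itga2. Between adult and embryonic fibroblasts 1 marker, Pf4, was higher, while Itga2 was lower. No RMA value was 0, and the part of these cells in the Itga2 result was not tested.

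Itga11, which encodes a collagen receptor subunit of mesenchymal cells, was the member called higher in adult fibroblasts. It stood at 8.04, 7.86 and 8.05 there, at 7.32, 7.05 and 7.27 in embryonic fibroblasts, and at 7.11, 7.20 and 7.36 in cardiomyocytes. All adult arrays were above all embryonic ones, whose groups overlapped. Itga11 was 1.70-fold higher in adult than in embryonic fibroblasts (0.77 ± 0.10, adjusted p = 0.000733) and 1.69-fold higher in adult fibroblasts than in cardiomyocytes (0.76 ± 0.10, adjusted p = 0.000305). Between embryonic fibroblasts and cardiomyocytes the difference was -0.0097 (interval from -0.24 to 0.22, adjusted p = 0.971).

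Itga1, the neighbour of Itga2 on the same chromosome and the gene of another collagen-binding subunit, was called in no comparison. Its values were 9.45, 9.78 and 8.77 in adult fibroblasts, 9.31, 9.37 and 9.79 in embryonic fibroblasts, and 9.73, 9.66 and 9.46 in cardiomyocytes. All 3 groups overlapped, and adult fibroblast replicate 3 was the lowest array. The difference between embryonic fibroblasts and cardiomyocytes was -0.13 (interval from -0.66 to 0.40, adjusted p = 0.786). Between adult and embryonic fibroblasts it was -0.15 (interval from -0.68 to 0.38), and between adult fibroblasts and cardiomyocytes -0.28 (interval from -0.81 to 0.25).

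Of the laminin receptor genes, Itga6 varied most within a group. It stood at 9.59, 10.41 and 8.23 in adult fibroblasts, at 11.10, 11.19 and 10.91 in embryonic fibroblasts, and at 10.32, 10.01 and 10.23 in cardiomyocytes. The embryonic fibroblast arrays lay above all others, and the adult arrays were on both sides of the cardiomyocytes. Itga6 was 3.15-fold lower in adult than in embryonic fibroblasts (-1.66 ± 0.43, adjusted p = 0.0242). The difference was -1.07 without adult fibroblast replicate 3 and -2.15 without adult fibroblast replicate 2, and it was called in both cases. The call was lost with only the fibroblast groups fitted (adjusted p = 0.0833) and without any embryonic fibroblast array (adjusted p from 0.0555 to 0.0771, over a range from 0.00288 for all alternatives).

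The difference of Itga6 between embryonic fibroblasts and cardiomyocytes, 0.88 ± 0.43, was not called (adjusted p = 0.206), although these groups did not overlap. The SE holds the spread of the adult arrays, whose SD was 1.10, against 0.15 in embryonic fibroblasts and 0.16 in cardiomyocytes. Without adult fibroblast replicate 3 the same difference gave an adjusted p of 0.00814, with only these groups fitted 0.00140, and with array weights 0.0116 (range from 0.00140 to 0.404). Adult fibroblasts against cardiomyocytes gave -0.78 (interval from -1.75 to 0.19, adjusted p = 0.201), and this value moved with single adult arrays. It was -1.28 without adult fibroblast replicate 2 (adjusted p = 0.0174) and -0.19 without replicate 3 (adjusted p = 0.556), which were the ends of its range over the alternatives.

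Endothelial cells express Itga6, and the mean of their markers ran in its order within each group, but between groups in some comparisons only. Single markers did not all keep the order within groups, such as Pecam1 in embryonic fibroblasts (10.96, 10.91 and 10.32). On the 3 adult fibroblast arrays the mean of 10 endothelial markers was 9.35, 9.95 and 8.83, in the same order as Itga6. In embryonic fibroblasts it was 10.07, 10.09 and 9.62, and in cardiomyocytes 8.88, 8.43 and 8.57, in each group also in the order of Itga6. The summed linear values of these markers were 5748 to 13387 in adult fibroblasts, 10379 to 14548 in embryonic fibroblasts and 3827 to 5498 in cardiomyocytes. Of the 10 markers 9 were higher in embryonic fibroblasts than in cardiomyocytes, and 2 were lower in adult than in embryonic fibroblasts. In adult fibroblasts against cardiomyocytes 5 were higher and 0 lower, with a median log2 difference of 0.70, while Itga6 differed by -0.78. The part of endothelial cells in the values of Itga6, or of Itga1, Itga5 and Itgav, which these cells also express, was not tested.

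Itga7, the laminin receptor subunit of striated muscle, did not stand out in cardiomyocytes on its 1 probe. The mean of Itga7 over all arrays lay at percentile 40 of all genes. Its values were 7.49, 7.67 and 7.33 in adult fibroblasts, 7.44, 7.48 and 7.40 in embryonic fibroblasts, and 7.15, 7.37 and 7.32 in cardiomyocytes. The adult arrays overlapped with both other groups, and the embryonic groups were separate. The differences were 0.16 for embryonic fibroblasts against cardiomyocytes (interval from -0.062 to 0.39), 0.054 for adult against embryonic fibroblasts (interval from -0.17 to 0.28) and 0.22 for adult fibroblasts against cardiomyocytes (interval from -0.0081 to 0.44, adjusted p = 0.128). The last one passed without adult fibroblast replicate 3 (0.30, adjusted p = 0.0320, over a range from 0.0320 to 0.355).

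All 3 subunits that bind the Arg-Gly-Asp motif were higher in embryonic fibroblasts than in cardiomyocytes. Itgav, which pairs with beta1 and with several other beta subunits, stood at 11.35, 11.31 and 10.66 in adult fibroblasts, at 11.24, 11.25 and 10.99 in embryonic fibroblasts, and at 9.52, 9.34 and 9.32 in cardiomyocytes. Both fibroblast groups lay far above the cardiomyocytes and overlapped with each other. Itgav was 3.41-fold higher in embryonic fibroblasts (1.77 ± 0.17, adjusted p = 0.000224) and 3.28-fold higher in adult fibroblasts (1.71 ± 0.17, adjusted p = 4.62e-05) than in cardiomyocytes. The difference between adult and embryonic fibroblasts was -0.056 (interval from -0.45 to 0.34, adjusted p = 0.856).

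Itga5, the gene of the main fibronectin receptor subunit, followed Itgav with smaller differences. It stood at 9.72, 9.75 and 9.52 in adult fibroblasts, at 9.98, 9.96 and 9.59 in embryonic fibroblasts, and at 9.03, 8.91 and 8.79 in cardiomyocytes. No cardiomyocyte array reached the fibroblasts, and the fibroblast groups overlapped. Itga5 was 1.91-fold higher in embryonic fibroblasts (0.93 ± 0.12, adjusted p = 0.000844) and 1.68-fold higher in adult fibroblasts (0.75 ± 0.12, adjusted p = 0.00105) than in cardiomyocytes. Adult fibroblasts differed from embryonic ones by -0.18 (interval from -0.46 to 0.10, adjusted p = 0.369).

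Itga8, whose product binds nephronectin and fibronectin, was high in embryonic fibroblasts. Its values were 8.35, 7.75 and 8.94 in adult fibroblasts, 9.64, 9.68 and 9.88 in embryonic fibroblasts, and 8.23, 8.05 and 7.93 in cardiomyocytes. Embryonic fibroblasts were above every other array, and the adult arrays reached both above and below the cardiomyocytes. Itga8 was 3.17-fold higher in embryonic fibroblasts than in cardiomyocytes (1.66 ± 0.25, adjusted p = 0.00147) and 2.61-fold lower in adult than in embryonic fibroblasts (-1.39 ± 0.25, adjusted p = 0.00363). These calls of Itga8 held under all 17 alternatives. Adult fibroblasts did not pass against cardiomyocytes (0.28 ± 0.25, adjusted p = 0.429). This difference was -0.021 without adult fibroblast replicate 3, and 0.58 without adult fibroblast replicate 2, where it passed (adjusted p = 0.0355, over a range from 0.0355 to 0.947). Among 9 epicardial markers, 4 were higher in embryonic fibroblasts than in cardiomyocytes and 6 were lower in adult than in embryonic fibroblasts. Others did not run with Itga8: Aldh1a2 had its highest mean in adult fibroblasts (9.37, against 9.12 in embryonic fibroblasts), and Krt19 averaged 8.19 in embryonic fibroblasts and 8.34 in cardiomyocytes. Their summed linear values were 1758 to 2111 in adult fibroblasts, 2593 to 3196 in embryonic fibroblasts and 1744 to 1892 in cardiomyocytes. Their part in the Itga8 result was not tested.

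Itga4, a subunit of leukocytes and of the epicardium that binds VCAM1 and fibronectin, had values of 7.07, 7.42 and 7.42 in adult fibroblasts, 7.71, 7.79 and 8.56 in embryonic fibroblasts, and 6.89, 7.12 and 7.22 in cardiomyocytes. Embryonic fibroblasts were above the other groups, with replicate 3 well above replicates 1 and 2. Itga4 was 1.92-fold higher in embryonic fibroblasts than in cardiomyocytes (0.94 ± 0.21, adjusted p = 0.0119), a call lost without cardiomyocyte replicate 1 (adjusted p = 0.0539, over a range from 0.00370). It was 1.64-fold lower in adult than in embryonic fibroblasts (-0.71 ± 0.21, adjusted p = 0.0442). That call was lost in 8 of 17 alternatives (adjusted p from 0.0121 to 0.136), and the difference was -0.45 without embryonic fibroblast replicate 3. Adult fibroblasts against cardiomyocytes gave 0.23 (interval from -0.25 to 0.71). Between groups, macrophage and leukocyte markers ran otherwise in adult cells. Their summed linear values were 4732 to 8327 in adult fibroblasts, 2807 to 3851 in embryonic fibroblasts and 1894 to 1980 in cardiomyocytes. On single arrays their mean was 8.21, 7.98 and 8.36 in embryonic fibroblasts and 7.40, 7.38 and 7.43 in cardiomyocytes. In both it was highest where Itga4 was highest, but the full order differed. In adult fibroblasts it was 8.63, 9.31 and 8.93, lowest where Itga4 was lowest. Of these 10 leukocyte markers 7 were higher in embryonic fibroblasts than in cardiomyocytes, and 5 were higher in adult than in embryonic fibroblasts. Of 9 epicardial markers 4 were higher and 0 lower in embryonic fibroblasts than in cardiomyocytes. Between adult and embryonic fibroblasts 6 of them were lower and 0 higher, the directions of Itga4. The part of leukocytes or of the epicardium in the Itga4 result was not tested.

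**Figure D3:**
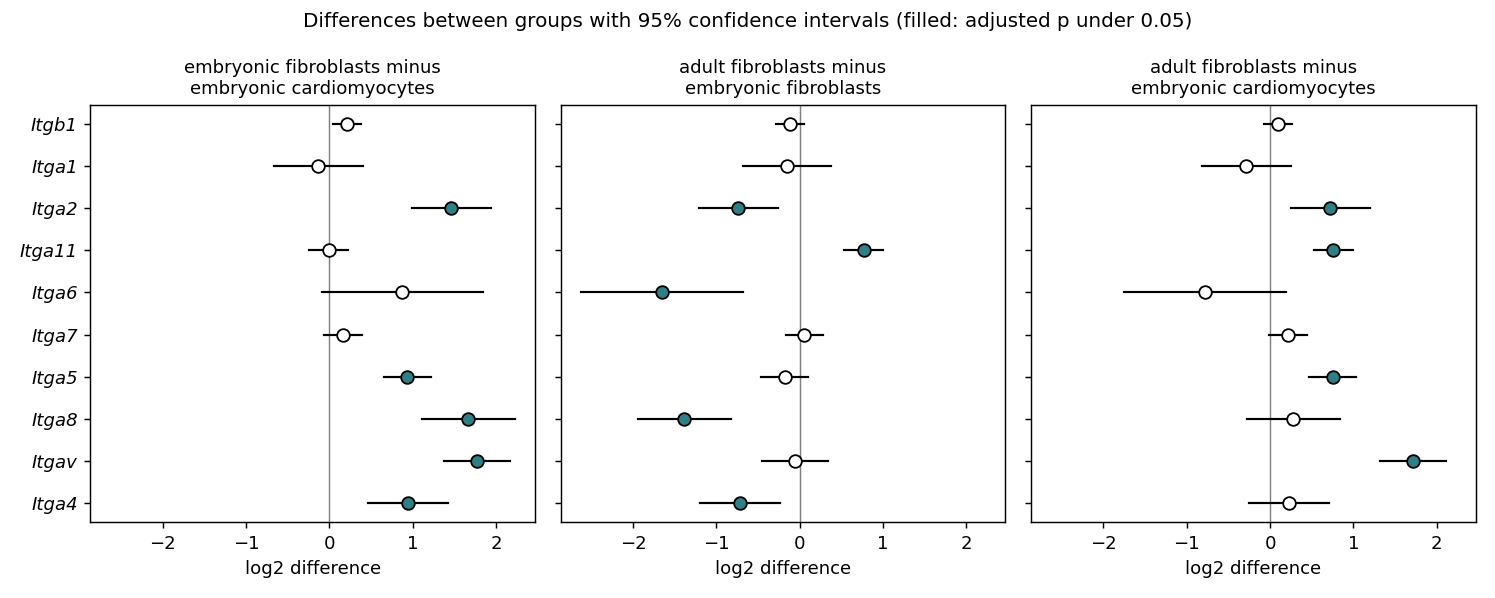
Log2 differences of the 10 genes in the 3 comparisons, with 95% confidence intervals from limma; filled points have an adjusted p under 0.05. In the comparison of embryonic fibroblasts with cardiomyocytes the 5 filled points lie between 0.93 and 1.77, and Itga11 is the filled point above 0 between adult and embryonic fibroblasts.

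The order of the group means was alike for 6 of the 10 genes. Itgb1, Itga2, Itga5, Itga8, Itgav and Itga4 were highest in embryonic fibroblasts, then adult fibroblasts, then cardiomyocytes. For Itgb1 no neighbours in that order differed beyond the test. For Itgav and Itga5 the fibroblast groups did not differ beyond it, and for Itga8 and Itga4 adult fibroblasts and cardiomyocytes did not. Itga6 was lowest in adult fibroblasts, Itga11 and Itga7 were highest there, and Itga1 was highest in cardiomyocytes.

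Genes with the most similar profile were sought among 18704 named genes, by the root mean square difference over the 9 arrays after centring each gene. For Itgav they were Lgals8 (0.13 log2 units), Fyn (0.17) and Pxdc1 (0.17). Itga8 was nearest to Robo2 (0.19), Sfrp2 (0.25) and Plxnc1 (0.29). Itga2 was nearest to Col5a2 (0.18), Tes (0.19) and Col3a1 (0.21). The genes nearest to Itga6 were Acer2 (0.23), Clic1 (0.29) and Actn1 (0.32). For Itgb1, Nkain3, Sppl3 and Dab1 came first (0.033 to 0.041), but 11360 genes lay within 0.25 of it, since Itgb1 itself varied by only 0.10. These distances describe 9 arrays of 3 groups and carry no test.

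Promoter sequences were in the promoter table used (GRCm38.p6) for 8 of the 10 genes, not for Itga6 and Itga7. Those shown belong to the genes that mark each pattern: Itgb1, nearly level, Itgav and Itga5, higher in both fibroblast groups, Itga8, higher in embryonic fibroblasts, and Itga11, higher in adult fibroblasts. Each runs 5′ to 3′ on the gene's strand from 250 bases before the start used there to 50 after it. Capitals mark matches to the motifs searched. The window of Itgav lies inside the gene as annotated, whose first base is chr2:83722303. Its motifs and GC content are those of this window.
Itgb1, chr8:128685404-128685703, plus strand: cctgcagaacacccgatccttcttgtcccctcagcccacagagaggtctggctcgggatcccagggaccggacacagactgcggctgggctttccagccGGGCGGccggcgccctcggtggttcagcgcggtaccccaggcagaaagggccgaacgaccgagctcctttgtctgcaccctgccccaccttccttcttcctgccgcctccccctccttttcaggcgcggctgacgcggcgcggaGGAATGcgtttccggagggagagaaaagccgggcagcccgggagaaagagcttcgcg
Itgav, chr2:83724147-83724446, plus strand: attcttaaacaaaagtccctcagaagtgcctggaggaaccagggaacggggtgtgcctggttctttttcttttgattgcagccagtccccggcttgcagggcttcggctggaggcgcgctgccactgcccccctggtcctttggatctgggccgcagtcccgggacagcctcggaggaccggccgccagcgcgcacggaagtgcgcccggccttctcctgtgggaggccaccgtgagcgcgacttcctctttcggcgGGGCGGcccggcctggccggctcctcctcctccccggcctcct
Itga5, chr15:103366742-103367041, minus strand: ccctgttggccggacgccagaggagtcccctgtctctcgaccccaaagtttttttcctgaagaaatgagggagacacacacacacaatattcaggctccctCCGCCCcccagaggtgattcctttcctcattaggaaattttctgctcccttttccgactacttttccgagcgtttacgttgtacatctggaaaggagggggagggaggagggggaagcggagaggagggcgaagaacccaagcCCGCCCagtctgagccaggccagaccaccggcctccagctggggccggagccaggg
Itga8, chr2:12301895-12302194, minus strand: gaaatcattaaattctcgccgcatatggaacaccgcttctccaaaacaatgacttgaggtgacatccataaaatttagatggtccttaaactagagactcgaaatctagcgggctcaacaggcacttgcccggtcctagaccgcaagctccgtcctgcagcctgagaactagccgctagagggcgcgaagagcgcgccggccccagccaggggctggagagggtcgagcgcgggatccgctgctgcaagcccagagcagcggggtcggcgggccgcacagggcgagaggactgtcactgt
Itga11, chr9:62677605-62677904, plus strand: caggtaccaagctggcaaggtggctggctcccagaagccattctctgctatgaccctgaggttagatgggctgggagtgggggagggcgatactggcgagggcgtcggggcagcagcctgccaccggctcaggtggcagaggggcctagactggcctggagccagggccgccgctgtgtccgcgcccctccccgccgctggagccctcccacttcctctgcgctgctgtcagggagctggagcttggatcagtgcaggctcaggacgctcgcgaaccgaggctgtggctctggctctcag
The motifs, searched on both strands, were the TATA box TATAAA, the CCAAT box CCAAT, the GC box GGGCGG, the AP-1 element TGANTCA, the TEAD element GGAATG and the CArG box, and no match overlapped another. GC boxes were found in 5 of the 8 promoters, those of Itgb1, Itga2, Itga5, Itgav and Itga4, against 35.7% of 32851 promoters in the table. The TEAD element occurred in that of Itgb1 (14.7% of all). The TATA box (13.6% of all), CCAAT box (37.4%), AP-1 element (7.81%) and CArG box (1.63%) were matched in 0 of the 8. The GC content of Itgav and Itgb1 was 67.3% each, that of Itga11 68.0%, of Itga8 59.0% and of Itga5 58.7%, against a median of 52.7% over all promoters. The CpG dinucleotides numbered 27 in Itgb1, 24 in Itgav, 23 in Itga8, 16 in Itga11 and 13 in Itga5 (median 7 over all promoters). None of the 6 motifs was matched in the promoters of Itga1, Itga8 and Itga11.

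Counts of calls in gene and marker lists, above and below, stand against these shares of all genes. In embryonic fibroblasts against cardiomyocytes 10.3% were called higher and 11.1% lower. In adult against embryonic fibroblasts the shares were 8.34% and 11.2%, and in adult fibroblasts against cardiomyocytes 17.4% and 18.2%. Values in parentheses after the genes that follow are log2 differences. Itga3, Itga9 and Itga10, the remaining partners of beta1 on the array, were called in 0 of the 3 comparisons, and 1 of them, Itga3, had an unadjusted p under 0.05 between adult and embryonic fibroblasts (-0.28). Of the other beta subunits that pair with alphaV, Itgb8 and Itgb6 were higher in embryonic fibroblasts than in cardiomyocytes. Itgb8, whose alphaV heterodimer activates latent TGF-beta, stood at 9.91, 9.45 and 9.97 in adult fibroblasts, at 9.70, 9.45 and 9.71 in embryonic fibroblasts, and at 8.64, 8.82 and 8.61 in cardiomyocytes. Like Itgav, it was above the cardiomyocytes on every fibroblast array. It was 1.90-fold higher in embryonic fibroblasts (0.93 ± 0.14, adjusted p = 0.00188) and 2.12-fold higher in adult fibroblasts (1.09 ± 0.14, adjusted p = 0.000264). Itgb3 was 1.62-fold higher in adult fibroblasts than in cardiomyocytes (adjusted p = 0.0139), and Itgb6 1.32-fold higher in embryonic fibroblasts than in cardiomyocytes (adjusted p = 0.0328). Itgb6 was dim, at 6.16 to 6.78 over all arrays, with its mean at percentile 16 of all genes. Itgb5 was not called in any comparison, with differences from -0.30 to 0.24. Among 9 subunits of leukocytes, platelets and epithelia, Itgam (0.47) and Itga2b (0.43) were higher in embryonic fibroblasts than in cardiomyocytes. Itgam was dim too, with its mean at percentile 27. Itgb2 (0.84), Itgam (0.71) and Itgb7 (0.29) were higher in adult fibroblasts than in cardiomyocytes, and 0 of the 9 were called between the fibroblast groups (1 at an unadjusted p under 0.05). Of 10 macrophage and leukocyte markers 9 were higher and 0 lower in adult fibroblasts than in cardiomyocytes, with a median of 1.33, and their part in the values of these subunits was not tested.

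Matrix ligands of these receptors were mostly higher in fibroblasts. Of 10 collagen genes 9 were higher and 0 lower in embryonic fibroblasts than in cardiomyocytes, with a median of 0.73, led by Col5a2 (1.32), Col3a1 (1.30) and Col6a3 (0.92), while Col1a1 differed by 0.66. The same counts, 9 and 0, were found for adult fibroblasts against cardiomyocytes. Between adult and embryonic fibroblasts 1 was higher, Col6a3 (0.39), and 2 were lower, Col5a2 (-0.59) and Col3a1 (-0.54). Of 10 measured ligands with the Arg-Gly-Asp motif or related ones, 7 were higher and 0 lower in embryonic fibroblasts than in cardiomyocytes, led by Thbs1 (3.16), Tnc (2.95) and Fn1 (1.47). Between adult and embryonic fibroblasts 1 of them was higher, Vtn (0.84), and 3 were lower, Fn1, Tnc (-0.91) and Npnt (-0.60). In adult fibroblasts against cardiomyocytes 6 were higher, led by Thbs1 (3.17), Tnc (2.03) and Tgfb1 (1.00), and 2 lower, Fn1 and Npnt (-0.48).

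Fn1, the gene of fibronectin, the ligand of alpha5, alpha8, alphaV and alpha4 integrins, did not follow Itgav and Itga5 in adult cells. It stood at 10.31, 10.37 and 10.33 in adult fibroblasts, at 12.64, 12.74 and 12.35 in embryonic fibroblasts, and at 11.28, 11.03 and 11.02 in cardiomyocytes. The groups were fully separate, and the adult arrays were the lowest. Fn1 was 4.73-fold lower in adult than in embryonic fibroblasts (-2.24 ± 0.11, adjusted p = 2.49e-06) and 1.71-fold lower in adult fibroblasts than in cardiomyocytes (-0.78 ± 0.11, adjusted p = 0.000522). Vcam1, the cell surface ligand of alpha4 beta1, ran against Itga4 between the fibroblasts. It stood at 13.08, 12.81 and 12.33 in adult fibroblasts, at 11.41, 11.30 and 11.35 in embryonic fibroblasts, and at 10.37, 10.40 and 10.18 in cardiomyocytes. It was 2.62-fold higher in adult than in embryonic fibroblasts (1.39 ± 0.16, adjusted p = 0.000348) and 2.05-fold higher in embryonic fibroblasts than in cardiomyocytes (1.03 ± 0.16, adjusted p = 0.00202).

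Among 7 laminin genes, Lama2, the alpha chain of muscle laminin, changed the most. It stood at 11.44, 11.15 and 11.83 in adult fibroblasts, at 8.69, 8.50 and 8.73 in embryonic fibroblasts, and at 9.55, 9.52 and 9.30 in cardiomyocytes. It was 7.12-fold higher in adult than in embryonic fibroblasts (adjusted p = 4.08e-06), a direction opposite to that of the laminin receptor gene Itga6. In embryonic fibroblasts 1 laminin gene was higher than in cardiomyocytes, Lamc1 (0.34), and 1 lower, Lama2 (-0.81). In adult fibroblasts Lama2 and Lama4 (0.34) were higher than in embryonic fibroblasts, and Lama2 (2.02), Lamc1 (0.50) and Lama4 (0.34) higher than in cardiomyocytes.

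Of 24 measured adaptors and activators of integrin tails, 3 were higher and 3 lower in embryonic fibroblasts than in cardiomyocytes. These counts lay near the shares of all genes, 10.3% higher and 11.1% lower. The higher ones were Bcar1 (0.54), Zyx (0.46) and the kindlin gene Fermt2 (0.43). The lower ones were the talin gene Tln2 (-1.09), Itgb1bp2 (-0.66), which encodes the muscle protein melusin that binds the beta1 tail, and Nmrk2 (-0.31), listed under its older name Itgb1bp3. Itgb1bp2 stood at 7.63, 7.52 and 7.52 in adult fibroblasts, at 8.02 on each embryonic fibroblast array, and at 8.87, 8.65 and 8.52 in cardiomyocytes. Its groups were fully separate, with cardiomyocytes highest, and its SD in embryonic fibroblasts was 0. Tln1, the widely expressed talin, was called in no comparison (-0.21 to 0.20). Between adult and embryonic fibroblasts 1 was higher, Cd47 (1.10), and 6 lower, led by the tetraspanin gene Cd151 (-1.03), Zyx (-0.68) and Cd81 (-0.58). In adult fibroblasts against cardiomyocytes 3 were higher, Cd9 (2.12), Cd47 (1.31) and Lims2 (0.62), and 7 lower, led by Tln2 (-1.24), Itgb1bp2 (-1.12) and Cd151 (-0.92).

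**Figure D4:**
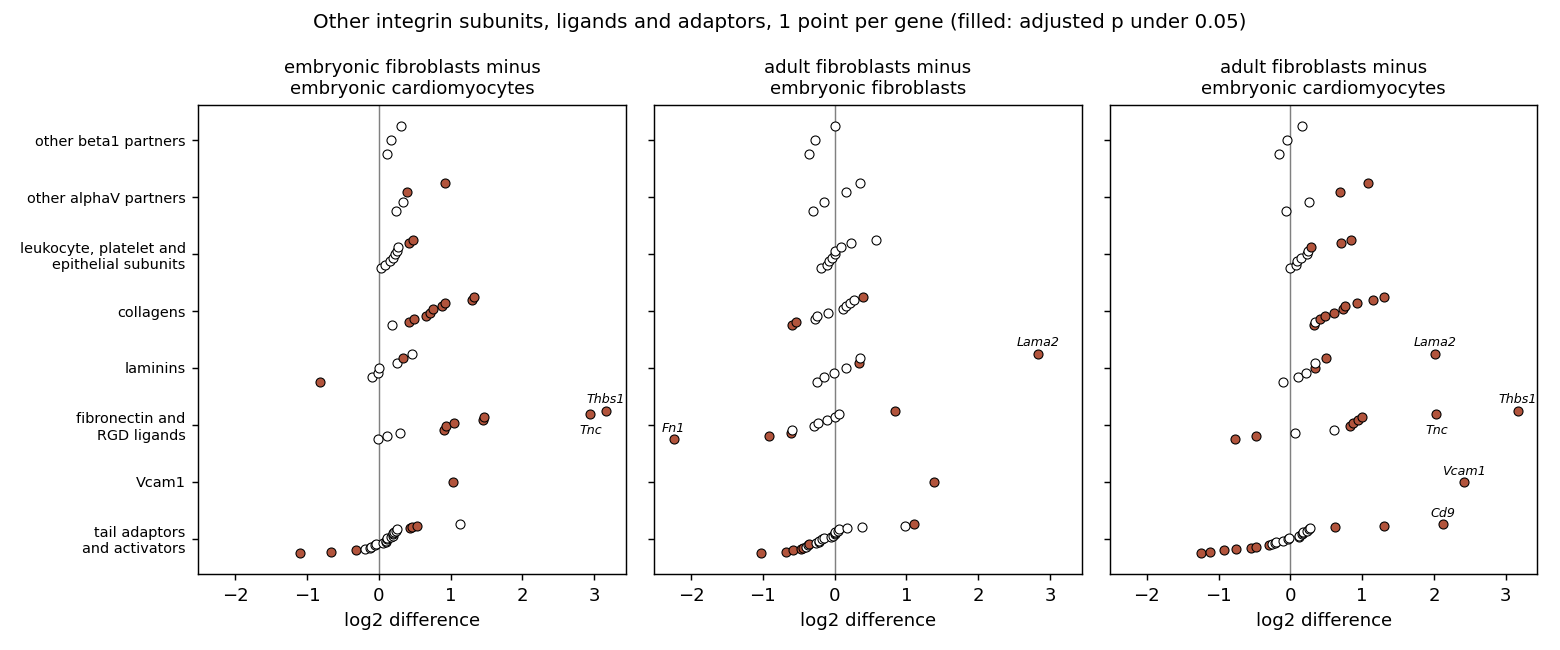
Log2 differences of other integrin subunits, matrix ligands and tail adaptors in the 3 comparisons, 1 point per gene, filled at an adjusted p under 0.05. The 3 other beta1 partners lie near 0, 9 of 10 collagens are filled on the right in both comparisons with cardiomyocytes, and Fn1 and Lama2 lie at -2.24 and 2.83 between adult and embryonic fibroblasts.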

How the data were processed

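The submitters' processing notes name RMA, without a version, as the method behind the deposited log2 values. RMA corrects background, normalizes between arrays and summarizes probes. The deposited values still differed in spread: the SD over all probes was 1.71 on adult fibroblast replicate 3 and 1.83 to 1.90 on the others. The log base is not stated and was read as log2, since the deposited values run from 2.70 to 14.20. The build is not given in the sources used. The number of arrays limits the precision. Sample titles gave the groups and replicate numbers. Of 28767 probes, 21776 had a single symbol in the platform annotation, 1618 had several and 5373 had none; 0 symbols changed when updated by Entrez identifier with RefSeq of GRCm38.p6. Where several probes shared a symbol, the one brightest on average was kept. Columns of other samples numbered 0.

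The log2 values of 19933 genes of all 9 arrays entered 1 linear model with a mean per group (lmFit and eBayes of limma 3.58.1, run under R 4.3.3), with no filter on dim genes. SDs and SEs rest on n = 3 arrays per group. The fit was tested on simulated data in which each gene had the same spread in all groups. That test does not cover unequal spreads such as those of Itga6. Figures were drawn with matplotlib 3.10.9. Members, gene lists and markers were chosen with earlier results of these data known. All 10 members are described; other genes named are up to 3 called per list, direction and comparison, those with the largest difference, besides Itga3, Itga9, Itga10, Itgb3, Itgb5, Fn1, Vcam1, Col1a1, Tln1, Tln2 and Itgb1bp2. The 3 most similar genes are given for Itgb1 and for members whose group means span at least 1 log2 unit. Alternatives numbered 17: the replicate block, the 2 groups alone, median centring, quantile normalization, a filter at the 30th percentile, the mean of probes, array weights, an intensity trend, and leaving out each of the 9 arrays.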

Additional observations from a re-analysis of the deposited data

How the results depend on the processing

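Over the 30 differences of members and 17 alternatives, 465 of 510 values kept both direction and side of the threshold, 28 lost a call, 8 gained one and 9 turned in sign, all 9 in differences that had not been called. With only the 2 groups of the comparison fitted, 1 member was lower in adult than in embryonic fibroblasts, against 4; leaving out single arrays gave 1 to 4. For adult fibroblasts against cardiomyocytes, 0 to 1 members were lower without single arrays. The turned differences between adult and embryonic fibroblasts were 0.083 for Itgb1 after quantile normalization, and 0.10 for Itga1 and 0.080 for Itgav with array weights. Leaving out single arrays gave ranges from -0.38 to 0.13 for Itga1, from -0.032 to 0.14 for Itga7 and from -0.18 to 0.17 for Itgav in that comparison, from -0.067 to 0.070 for Itga11 between embryonic fibroblasts and cardiomyocytes, and from -0.021 to 0.58 for Itga8 between adult fibroblasts and cardiomyocytes. The cause was not tested. Over all genes, array weights raised the calls of embryonic fibroblasts against cardiomyocytes to 3103 higher and 3362 lower, against 2054 and 2212, and those of adult against embryonic fibroblasts to 2519 higher, against 1662. Without embryonic fibroblast replicate 2 the first comparison had 1452 lower. The labels do not say whether arrays with the same replicate number are paired. Correlations of same-numbered deviations ran from -0.20 to 0.20, which cannot decide it. With the replicate number as a block 5 members were higher in embryonic fibroblasts than in cardiomyocytes. In adult against embryonic fibroblasts 3 were lower. None of the 10 members lay below the 30th percentile, but RMA values hold no background level per probe.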

Other observations

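The array's other genes with symbols beginning in Itg are not integrin subunits of the lists above, and were looked at after their values were seen. Itgbl1, a secreted protein with repeats like those of beta subunits, stood at 10.71, 10.10 and 9.72 in adult fibroblasts, at 6.85, 6.69 and 6.70 in embryonic fibroblasts, and at 6.82, 7.07 and 7.06 in cardiomyocytes. It was 10.8-fold higher in adult than in embryonic fibroblasts (log2 difference 3.43 ± 0.21, SE, n = 3 per group, limma adjusted p = 6.67e-06) and did not differ beyond the test between embryonic fibroblasts and cardiomyocytes (-0.24, adjusted p = 0.527). Itgb3bp, a protein of the kinetochore named for its binding to the beta3 tail, stood at 6.66, 6.09 and 6.31 in adult fibroblasts, at 6.68, 6.91 and 7.01 in embryonic fibroblasts, and at 8.36, 8.05 and 7.79 in cardiomyocytes. It was 2.30-fold lower in embryonic fibroblasts than in cardiomyocytes (-1.20 ± 0.18, adjusted p = 0.00147).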
